A study of Oryza sativa Japonica Group with 8 samples.

Results

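The comparison described here was between leaves of OsGRP3 knock-down rice (OsGRP3 KD) and leaves of non-transgenic rice of the cultivar Nakdong (NT Nakdong), 2 RNA-seq libraries of each, or 4 of the 8 libraries of the series. OsGRP3 KD plants are of the cultivar Dongjin and carry an inverted repeat of a gene-specific 3′UTR fragment of OsGRP3 under the constitutive OsGOS2 promoter. The NT Nakdong plants carry no transgene and belong to another cultivar, so the knock-down and the difference between cultivars cannot be told apart in any value below. The labels and the study's methods give plants grown in soil for 4 weeks without treatment, whereas a legend of the study gives an age of 2 weeks, and leaf tissue was used. The study selected 3 single-copy knock-down lines, and which line or lines gave the 2 KD libraries is not stated in the sources used here. The remaining libraries of the series are 2 of an OsGRP3 overexpressor in Nakdong (OsGRP3 OE) and 2 of non-transgenic Dongjin (NT Dongjin), the cultivar of the KD plants.

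Glycine-rich RNA-binding proteins carry an RNA recognition motif followed by a glycine-rich tail. In plants they bind mRNAs and pre-mRNAs, act in splicing, export and stability of transcripts, and many are induced by cold, drought or abscisic acid. An inverted repeat is transcribed into double-stranded RNA, which Dicer-like enzymes cut into small interfering RNAs that guide argonaute proteins to the matching mRNA. The fragment that directs the silencing in the KD plants was amplified with the primers below, which are shown because they delimit the stretch of OsGRP3 that the construct targets. Both are printed in lower case throughout, since no genome was at hand to mark their positions.
forward primer: ggaactggaggaactgattg
reverse primer: ggtaacatcacggacgaaga

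The 2 KD libraries held 30254075 and 27719989 read counts in annotated genes, against 30159603 and 38940899 in the NT Nakdong libraries. In this order, and in all values below, the first value of a group is its replicate 1. Of 37869 annotated genes, 24383 had enough counts to be tested. The KD libraries lay further apart from each other than the NT Nakdong libraries did: 389 tested genes (1.60%) differed by at least 2-fold between the 2 KD libraries, against 46 (0.189%) between the 2 NT Nakdong libraries. Coverage along transcripts was weighted towards the 3′ end to a like degree in both groups, with first exons below last exons by a median of -2.43 and -2.71 in KD and of -2.69 and -2.41 in NT Nakdong (log2 of the coverage ratio, 6883 genes). In the NT Dongjin libraries it was -0.83 and -0.77, so their levels are given below as values only. The photosystem and light-harvesting genes, which mark green leaf tissue, summed to 130059 and 151322 counts scaled to library size (CPM) in KD and to 147034 and 154966 CPM in NT Nakdong. OSH1, the homeobox gene of the shoot apical meristem, was at 0 in all 4 libraries. Of 4 root markers, 3 were at 0 in all 4 libraries. The fourth, the silicon influx transporter Lsi1 (Os06g0228200), was at 65.6 and 73.4 CPM in KD and at 91.9 and 85.7 CPM in NT Nakdong (log2 fold change -0.35, adjusted p = 0.053). In bulk leaf tissue, fewer cells of a type and less RNA per cell cannot be told apart.

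The first question was the level of the targeted gene. OsGRP3 (Os03g0670700, chromosome 3, 26460057 to 26461156 on the plus strand of IRGSP-1.0, 4 annotated transcripts) was at 345 and 325 CPM in KD, against 1249.8 and 1171 CPM in NT Nakdong. Both KD libraries lay far below both NT Nakdong libraries, with means of 335 ± 14.5 CPM in KD and 1211 ± 55.6 CPM in NT Nakdong (SD, n = 2 each). The gene fell by 1.85 on the log2 scale (SE 0.12), a 3.61-fold difference, with an adjusted p of 7.0e-05. The largest adjusted p with any of the 4 libraries left out was 0.0021. Leaves of NT Dongjin, the cultivar of the KD plants, held 399.9 and 403 CPM, above both KD libraries and far below both NT Nakdong libraries. OsGRP3 OE leaves held 1527 and 1928 CPM. Most of the coverage of the gene was assigned to the transcript Os03t0670700-04 in both groups, 61.8% in KD and 68.2% in NT Nakdong. How the estimate divided the shared first exon among transcripts differed even between the 2 NT Nakdong libraries, and no difference in transcript use is drawn from it.

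The other 3 expressed glycine-rich RNA-binding protein genes of the list moved less. Os12g0632000, annotated as similar to Glycine-rich RNA-binding protein 1, was at 1014 and 1074 CPM in KD and at 1584 and 1731 CPM in NT Nakdong. Its KD libraries were below both NT Nakdong libraries, with a log2 fold change of -0.67 (SE 0.09, adjusted p = 0.0032), which is short of 2-fold. Os07g0187300, similar to Glycine-rich RNA-binding protein 7, was at 56.0 and 53.8 CPM in KD and at 67.9 and 66.1 CPM in NT Nakdong, a log2 fold change of -0.29 (SE 0.07, adjusted p = 0.047). Os05g0223200 was at 1.22 and 1.08 CPM in KD and at 1.46 and 0.90 CPM in NT Nakdong, and its groups overlapped. The plot of the 4 genes shows these levels beside those of NT Dongjin, where Os12g0632000 was at 181 and 184 CPM.

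**Figure D1:**
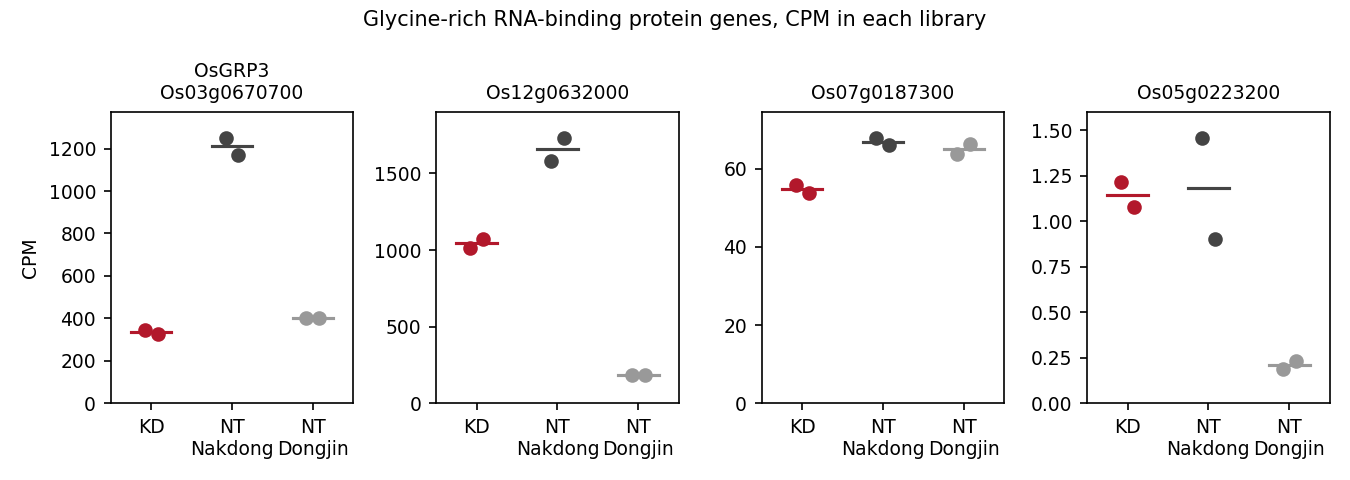
Levels of 4 glycine-rich RNA-binding protein genes in CPM on a linear axis from 0, 1 panel per gene, with 1 point per library and a bar at the mean of 2 libraries for KD, NT Nakdong and NT Dongjin. OsGRP3 sat at 345 and 325 CPM in KD, below 1249.8 and 1171 CPM in NT Nakdong and near 399.9 and 403 CPM in NT Dongjin.

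Across the transcriptome, more genes were lower than higher in OsGRP3 KD. A gene was called when it differed by at least 2-fold with an adjusted p under 0.05. Of 24383 genes tested, 332 (1.36%) were higher and 741 (3.04%) were lower in KD, together 1073 (4.40%). With the unadjusted p under 0.05 that the study used, 725 genes (2.97%) were higher and 1350 (5.54%) were lower. Over all 24383 genes tested the log2 fold change had a median of 0.01. Many of the called genes were expressed at a low level, with a median of 4.17 CPM for the genes called higher and of 5.12 CPM for those called lower, and 170 and 335 of them were under 1 CPM in at least 1 library. The number of calls changed most when an NT Nakdong library was left out, and the reason was not tested. Without NT Nakdong replicate 1 the fit called 128 genes higher and 192 lower, and without NT Nakdong replicate 2 it called 175 and 227. Without KD replicate 2 it called 286 higher and 457 lower, and without KD replicate 1 it called 314 and 898. Most of the 1073 calls were lost in at least 1 of these 4 fits. The CPM of the 2 groups did not overlap for any of the 332 genes called higher or the 741 called lower. No direction could therefore turn when 1 library was left out, and a lack of overlap adds nothing to a call given below. The share without overlap over all tested genes was not counted. The plot of fold change against level shows calls from below 1 CPM up to the levels of OsGRP3 and Os12g0247700, and no call among the genes more abundant than these. The arcs at its edges are genes with 0 counts in 1 group, whose fitted change depends on the prior count.

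**Figure D2:**
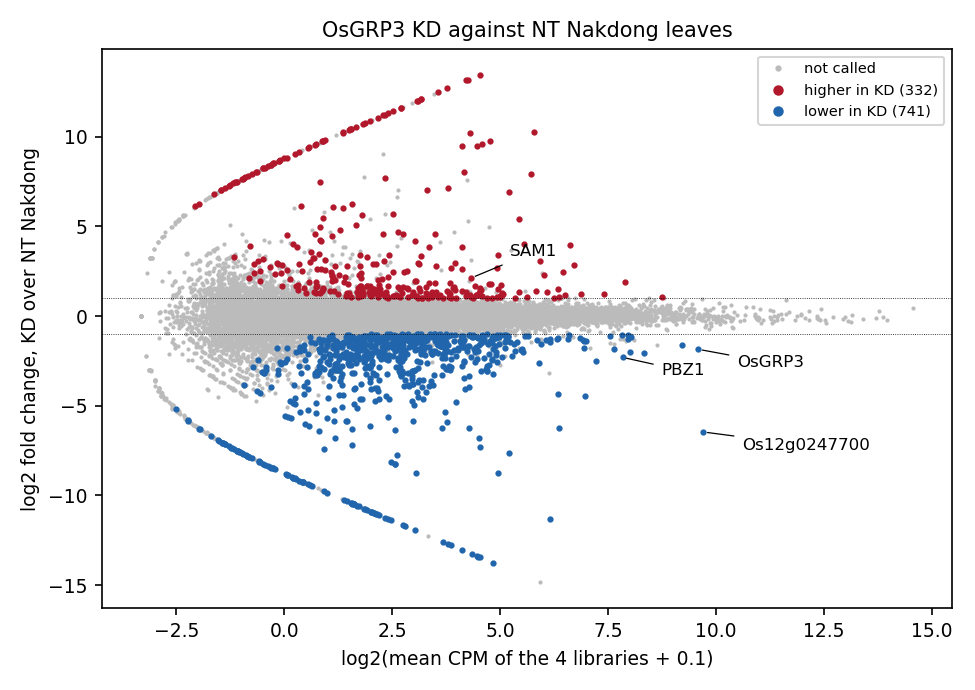
Log2 fold change of OsGRP3 KD over NT Nakdong (vertical axis) against the log2 of the mean CPM of the 4 libraries plus 0.1 (horizontal axis), 1 point per tested gene, with genes called higher in red and genes called lower in blue. The 741 genes called lower outnumber the 332 called higher, and OsGRP3 lies at -1.85 among the abundant genes.

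The 6 most abundant of the genes called higher were of varied annotation. Os09g0538000, a ribonuclease T2 of the family that degrades RNA in the vacuole and outside the cell, was at 423 and 330.4 CPM in KD and at 99.0 and 103 CPM in NT Nakdong. Its lower KD library was more than 3 times the higher NT Nakdong library, and the gene rose by 1.90 on the log2 scale (SE 0.16, adjusted p = 2.7e-04). Os03g0226400, similar to metal tolerance protein 4, a cation transporter, was at 240.2 and 238 CPM in KD and at 102 and 100.2 CPM in NT Nakdong, a log2 fold change of 1.24 (SE 0.08). Os07g0110000 and Os05g0380200, conserved genes of no described function, were at 180.3 and 190.2 CPM and at 202 and 169 CPM in KD. In NT Nakdong they were at 28.3 and 22.5 CPM and at 10.9 and 12.6 CPM. In OsGRP3 OE they were at 195 and 111 CPM and at 11.8 and 14.6 CPM, and Os03g0226400 was at 250 and 286 CPM. The lipid transfer protein gene Os03g0251000 was at 659 and 516 CPM in KD and at 303 and 258 CPM in NT Nakdong (log2 fold change 1.07). Its adjusted p of 0.0089 became 0.085 without NT Nakdong replicate 2, 0.061 without replicate 1. Os12g0183100, similar to the E1 alpha subunit of the enzyme complex that breaks down branched-chain amino acids, was at 175 and 154 CPM in KD and at 68.1 and 70.8 CPM in NT Nakdong. Its log2 fold change was 1.24 (adjusted p = 0.0064), and it lost its call without either NT Nakdong library, at 0.080 and 0.060.

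The abundant genes that fell included a jasmonate-induced protein gene, a calcium-binding protein gene and a gene of sucrose breakdown. Os12g0247700, annotated as similar to Jasmonate-induced protein, was at 15.8 and 21.9 CPM in KD, against 1730.1 and 1589 CPM in NT Nakdong. It was high in NT Nakdong and low in KD in every library, and its log2 fold change of -6.46 (SE 0.54, adjusted p = 3.0e-04) was the largest fall among genes with at least 1 CPM in each library. NT Dongjin held 0.87 and 0.95 CPM of it, and OsGRP3 OE 346 and 1129 CPM. Os06g0254300, an EF-hand calcium-binding protein gene, was at 90.5 and 115 CPM in KD and at 418 and 402 CPM in NT Nakdong, and fell by 1.99 on the log2 scale (SE 0.12, adjusted p = 4.4e-05). Os04g0233400, whose annotation gives no function, was at 183 and 143 CPM in KD and at 357 and 372 CPM in NT Nakdong (log2 fold change -1.16), and was no longer 2-fold lower without KD replicate 2. Sucrose synthase 2 (Os03g0401300), which cleaves sucrose into UDP-glucose and fructose, was at 394 and 204 CPM in KD and at 923 and 874 CPM in NT Nakdong (log2 fold change -1.59, adjusted p = 0.0087). Its groups did not overlap, but the KD libraries differed from each other by almost as much as 2-fold, and the call was lost at adjusted p = 0.075 and 0.053 without NT Nakdong replicate 1 and 2. Os08g0460000, similar to Germin-like protein 1 of the apoplast, was likewise uneven in KD, at 195 and 55.1 CPM, against 480.2 and 561 CPM in NT Nakdong (log2 fold change -2.06, adjusted p = 0.045). Without either NT Nakdong library its adjusted p was 0.18.

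The largest rises were in genes of scattered function. Os12g0117700, similar to an RNA-binding protein, stood at 17.5 and 152 CPM in KD and at 2.25 and 1.81 CPM in NT Nakdong. The KD libraries were both higher but far apart from each other, its log2 fold change of 5.39 carried an SE of 0.94, and its call was lost without NT Nakdong replicate 1 (adjusted p = 0.12) or 2 (0.11). Os03g0426350, a conserved gene of unknown function, was even between libraries, at 86.3 and 90.3 CPM in KD and at 5.76 and 5.08 CPM in NT Nakdong (log2 fold change 4.03, SE 0.12). Os07g0158900, an F-box protein gene of the kind that selects targets for degradation, was at 55.4 and 57.0 CPM in KD and at 4.80 and 5.88 CPM in NT Nakdong (log2 fold change 3.39, SE 0.11). The non-protein coding transcript Os01g0610050 was at 28.7 and 36.2 CPM in KD and at 1.89 and 2.61 CPM in NT Nakdong (log2 fold change 3.84, SE 0.21). Os04g0249600, similar to senescence-associated protein DIN1, which in Arabidopsis is induced by darkness and in ageing leaves, was at 86.9 and 130.4 CPM in KD and at 13.2 and 12.9 CPM in NT Nakdong. The gene rose by 3.06 on the log2 scale (SE 0.36, adjusted p = 0.0022). OsGRP3 OE leaves, which are of the cultivar Nakdong, held 78.9 and 70.2 CPM of Os03g0426350 and 251 and 109 CPM of Os04g0249600. They held 9.01 and 8.99 CPM of Os07g0158900 and 2.80 and 2.65 CPM of Os01g0610050. Of the other 5 genes among the 10 largest rises, Os05g0380200 is given above, and Os12g0113600, Os06g0579600, Os12g0528801 and the thionin-like Os07g0432201 all lost their calls without NT Nakdong replicate 1, at adjusted p of 0.062, 0.27, 0.058 and 0.12. All but Os12g0528801 lost them without NT Nakdong replicate 2 as well, at 0.060, 0.22 and 0.11. Os06g0579600 was also lost without KD replicate 1 (0.070).

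The largest falls were led by the jasmonate-induced protein gene and a lipoxygenase gene. Lipoxygenase L-2 (Os03g0738600), of the enzymes that oxidise polyunsaturated fatty acids, was at 2.98 and 1.26 CPM in KD and at 163 and 163 CPM in NT Nakdong (log2 fold change -6.24, SE 1.11, adjusted p = 0.013). It was near 0 in NT Dongjin too, at 0 and 0.087 CPM, and uneven in OsGRP3 OE, at 1.31 and 29.6 CPM. Its adjusted p was 0.068 without KD replicate 2 and 0.079 and 0.065 without NT Nakdong replicate 1 and 2. Os12g0263800, of which 1 transcript is described as an isoflavone reductase-like enzyme, was at 10.99 and 10.92 CPM in KD and at 243 and 236 CPM in NT Nakdong. The libraries within each group were nearly equal, and the log2 fold change was -4.45 (SE 0.10, adjusted p = 3.8e-07). Os12g0209800, an immune receptor gene of the NB-ARC class, was at 3.59 and 3.42 CPM in KD and at 36.5 and 33.7 CPM in NT Nakdong (log2 fold change -3.32, SE 0.12). The non-protein coding transcript Os11g0689800 was at 1.57 and 1.22 CPM in KD and at 19.7 and 20.5 CPM in NT Nakdong (log2 fold change -3.84, SE 0.20). The other 5 genes of the 10 largest falls were Os07g0565800, Os11g0693800 (ATP-citrate synthase-like), Os05g0191700 (similar to a stem glycoprotein), Os07g0600000 and Os01g0814100, with log2 fold changes from -4.33 to -3.23. Each of them lost its call without NT Nakdong replicate 1, at adjusted p from 0.059 to 0.23, and all but Os07g0600000 also without NT Nakdong replicate 2, at 0.067 to 0.172. Os11g0693800 was lost without either KD library as well, and Os05g0191700 without KD replicate 2.

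The study tabulated 16 genes, OsGRP3 among them, a list that it chose on these samples and that is therefore not independent evidence of a direction. Against NT Nakdong, 15 of the 16 had enough counts to be tested, and 4 were lower (26.7%) and 1 was higher (6.67%) in KD, against 3.04% and 1.36% of all tested genes. The lower genes numbered 2 without NT Nakdong replicate 1, 3 without NT Nakdong replicate 2 and 5 without KD replicate 1. Besides OsGRP3, the class III peroxidase gene Os01g0263300 was at 27.3 and 17.4 CPM in KD and at 62.1 and 61.8 CPM in NT Nakdong (log2 fold change -1.47, SE 0.18, adjusted p = 0.0023). Such peroxidases are secreted enzymes that use hydrogen peroxide in the cell wall. The study lists Os01g0263300 and the lipoxygenase Os10g0361000 as higher in KD than in its own NT plants, opposite to the direction here. It lists OsGRP3 and Os05g0369900 as lower and Os01g0293000 as higher, the direction found here. Os05g0369900, a subunit of the exocyst that tethers secretory vesicles, was at 0.16 and 0.33 CPM in KD and at 4.04 and 3.23 CPM in NT Nakdong (log2 fold change -3.88, adjusted p = 0.0084, 0.070 without NT Nakdong replicate 1). The lipoxygenase Os10g0361000 was at 8.39 and 8.35 CPM in KD and at 17.3 and 18.8 CPM in NT Nakdong (log2 fold change -1.11, adjusted p = 0.0089), and was lost without NT Nakdong replicate 1 (0.068) or 2 (0.075). The gene that was higher was the S-adenosylmethionine synthetase Os01g0293000, whose product is the methyl donor of the cell and the precursor of ethylene. It was at 35.6 and 29.7 CPM in KD and at 8.02 and 6.97 CPM in NT Nakdong (log2 fold change 2.13, SE 0.14, adjusted p = 9.2e-05), with no overlap and the call made in each fit with a library left out.

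A further 10 genes of that table were tested and not called. The 4,5-DOPA dioxygenase-like gene Os01g0878900 came closest, at 347 and 348 CPM in KD and at 172 and 204 CPM in NT Nakdong. Its KD libraries were both higher, but the log2 fold change of 0.89 (SE 0.20, adjusted p = 0.039) was short of 2-fold, and NT Dongjin had no count of it. The carotenoid oxygenase gene Os08g0371200 was at 16.3 and 30.9 CPM in KD and at 22.6 and 22.4 CPM in NT Nakdong, so that its KD libraries lay on either side of NT Nakdong. The thaumatin-like gene Os12g0629700 was at 2.56 and 0.26 CPM in KD and at 3.55 and 4.28 CPM in NT Nakdong (adjusted p = 0.296, but 0.017 without KD replicate 1). The 3 Allergen V5 genes Os07g0124900, Os07g0125500 and Os07g0126301 had nearly identical values in each library, from 0 to 0.87 CPM in KD and from 1.65 to 1.70 CPM in NT Nakdong, so reads between these copies could not be assigned with certainty. The remaining 4 genes, a late embryogenesis abundant protein, a metallothionein, a leucine-rich repeat protein and Os10g0580900, had adjusted p from 0.28 to 0.97. Os07g0559000, a non-protein coding transcript at 0.26 and 0.15 CPM in KD and at 0.066 and 0.077 CPM in NT Nakdong, had too few counts to be tested.

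Genes of RNA silencing and mRNA turnover were next, as the first carry out the knock-down and the second hold the decapping and deadenylation factors of processing bodies. None of 27 tested argonaute, Dicer-like and RNA-dependent RNA polymerase genes was called by edgeR, against 4.40% of all tested genes. At that share a list of this length can hold few calls or none. At an unadjusted p under 0.05, 1 was past 2-fold, and the median log2 fold change was -0.03. The AGO1 homologue Os02g0672200 was at 95.0 and 85.6 CPM in KD and at 116 and 103 CPM in NT Nakdong (adjusted p = 0.092). Argonaute 4 (Os01g0275600) was at 81.8 and 74.9 CPM in KD and at 76.6 and 75.9 CPM in NT Nakdong, and its groups overlapped. Of 34 tested genes of mRNA decay and processing bodies, 1 was higher (2.94%, against 1.36% of all tested genes) and none was lower, with a median of 0.20. The higher gene was the CAF1 ribonuclease Os08g0440300, a deadenylase that shortens poly(A) tails. It was at 36.8 and 31.0 CPM in KD and at 10.4 and 14.8 CPM in NT Nakdong, and rose by 1.43 on the log2 scale (SE 0.17, adjusted p = 0.0020).

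Cell wall enzymes had the largest share of lower genes among the lists. Expansins loosen the wall of growing cells, and xyloglucan endotransglucosylases (XTH) cut and rejoin its xyloglucan chains. Of 36 tested members, 11 (30.6%) were lower and 2 (5.56%) were higher in KD, against 3.04% and 1.36% of all tested genes, and the median log2 fold change was -0.50. The lower genes were 8 of 25 expansins and 3 of 11 XTH, and both higher genes were XTH. The alpha-expansin OsEXPA7 (Os03g0822000) was at 2.08 and 0.56 CPM in KD and at 11.2 and 11.2 CPM in NT Nakdong (log2 fold change -3.05, SE 0.49), and OsEXPA5 (Os02g0744200) was at 8.71 and 4.42 CPM in KD and at 17.0 and 20.8 CPM in NT Nakdong (log2 fold change -1.52, SE 0.31). The beta-expansin Os02g0658800 was at 19.7 and 10.7 CPM in KD and at 38.7 and 41.1 CPM in NT Nakdong (log2 fold change -1.39, SE 0.26). In all 3 the KD libraries were below both NT Nakdong libraries, and KD replicate 2 was the lowest. The XTH-type gene Os02g0696500, annotated by its glucanase domain, was at 7.59 and 6.24 CPM in KD and at 15.8 and 20.5 CPM in NT Nakdong (log2 fold change -1.39, SE 0.17, adjusted p = 0.0025) and was called in each fit with 1 library left out. The XTH gene Os11g0539200 ran the other way, at 11.6 and 15.4 CPM in KD and at 4.94 and 6.32 CPM in NT Nakdong (log2 fold change 1.26, SE 0.22). The summed level of the list did not separate the groups, at 1338 and 968 CPM in KD and at 1318 and 1475 CPM in NT Nakdong. The count of lower members rested on single libraries: it was 1 without NT Nakdong replicate 1, 1 without NT Nakdong replicate 2 and 5 without KD replicate 2, and 0 higher members were called when any of these 3 was left out.

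Class III peroxidases were called in both directions. Of 75 tested genes, 7 (9.33%) were lower and 3 (4.00%) were higher, against 3.04% and 1.36% of all tested genes, with a median log2 fold change of -0.29. Peroxidase P7 (Os02g0236600) was at 4.42 and 3.75 CPM in KD and at 19.2 and 22.9 CPM in NT Nakdong (log2 fold change -2.36, SE 0.21), and Os06g0695500 was at 13.3 and 6.16 CPM in KD and at 40.7 and 45.7 CPM in NT Nakdong (log2 fold change -2.14, SE 0.28). Os04g0656800 was at 0.13 and 0 CPM in KD and at 5.30 and 5.96 CPM in NT Nakdong. These 3 and Os01g0263300, given above, kept their calls with each library left out. The higher genes Os07g0677500, Os08g0113000 and Os02g0240100 did not. They were at 1.00 to 5.64 CPM except for 0.89 CPM of Os08g0113000 in KD replicate 2, against 0 to 0.39 CPM in NT Nakdong, and their adjusted p of 0.037, 0.035 and 0.011 became 0.26, 0.23 and 0.075 without NT Nakdong replicate 1. Without that library or NT Nakdong replicate 2 the list had 4 lower genes, without KD replicate 1 it had 13, and its higher genes numbered 0 without NT Nakdong replicate 1 and 1 without NT Nakdong replicate 2 or KD replicate 1. The KD libraries differed across the list, as 60 of the 75 genes were higher in KD replicate 1 than in KD replicate 2.

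Pathogenesis-related (PR) protein genes changed in both directions. Of 94 tested members, which include chitinases, glucanases, thaumatin-like proteins, thionins and PR-10 proteins, 9 (9.57%) were higher and 10 (10.6%) were lower, against 1.36% and 3.04% of all tested genes, with a median log2 fold change of 0.02. All 3 called members of the PR-10 (Bet v I) kind, of 8 tested, were lower. Probenazole-inducible protein PBZ1 (Os12g0555500), a classic marker of defence in rice, was at 64.8 and 89.5 CPM in KD and at 379.6 and 382 CPM in NT Nakdong, and fell by 2.30 on the log2 scale (SE 0.31, adjusted p = 0.0038). Its neighbour Os12g0555300, similar to PR-10a, was at 0.80 and 0.59 CPM in KD and at 8.08 and 8.41 CPM in NT Nakdong (log2 fold change -3.55, SE 0.35). The third, Os04g0465600, was at 69.7 and 19.7 CPM in KD and at 239 and 268 CPM in NT Nakdong (log2 fold change -2.50, SE 0.48). Of 28 tested chitinases, 4 were higher and 2 were lower. Chitinase 11 (Os03g0132900) was at 15.4 and 14.9 CPM in KD and at 5.996 and 6.115 CPM in NT Nakdong, while the class III chitinase homologue Os11g0702100 was at 0.70 and 0.41 CPM in KD and at 6.62 and 7.79 CPM in NT Nakdong. Of 24 tested thaumatin-like genes, 2 were higher and 3 were lower. The thaumatin-like Os01g0839900 was at 1.28 and 0.074 CPM in KD and at 18.6 and 16.7 CPM in NT Nakdong, and the thaumatin-like Os12g0628600 was at 70.5 and 35.3 CPM in KD and at 7.62 and 8.70 CPM in NT Nakdong. The call of Os12g0628600 (log2 fold change 2.70, adjusted p = 0.045) was lost whichever of the 4 libraries was left out, unlike those of PBZ1, Os12g0555300 and Os11g0702100, which were kept. Of the other genes named, Chitinase 11 lost its call without NT Nakdong replicate 1, and Os04g0465600 and Os01g0839900 lost theirs without either NT Nakdong library. The 9 higher genes came to 0 without NT Nakdong replicate 1, 2 without NT Nakdong replicate 2 and 5 without KD replicate 1, and the 10 lower ones to 3 and 4 without NT Nakdong replicate 1 and 2.

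WRKY factors regulate the transcription of defence genes. Of 73 tested WRKY transcription factor genes, 4 (5.48%) were higher and 1 (1.37%) was lower, against 1.36% and 3.04% of all tested genes, with a median log2 fold change of 0.40. WRKY69 (Os08g0386200) was at 8.84 and 8.09 CPM in KD and at 1.79 and 1.99 CPM in NT Nakdong (log2 fold change 2.16, SE 0.21, adjusted p = 6.8e-04). WRKY45 (Os05g0322900), which in rice is needed for resistance primed by salicylic acid analogues, was at 27.6 and 37.6 CPM in KD and at 13.7 and 16.3 CPM in NT Nakdong (log2 fold change 1.12, SE 0.22, adjusted p = 0.019), a call lost without either NT Nakdong library or KD replicate 2. The lower gene, Os11g0685700, similar to WRKY61, was at 0.83 and 0.41 CPM in KD and at 24.1 and 26.9 CPM in NT Nakdong, and fell by 5.33 on the log2 scale (SE 0.55, adjusted p = 0.0010). The count of higher WRKY genes was 1 and 2 without NT Nakdong replicate 1 and 2. Among 228 tested NB-ARC genes, which encode intracellular immune receptors, 5 (2.19%) were higher and 11 (4.82%) were lower, against the same shares of all genes, with a median of 0.02. Os04g0205200 was at 5.93 and 5.98 CPM in KD and at 0.13 and 0.21 CPM in NT Nakdong, and Os11g0686500 at 5.99 and 5.90 CPM in KD and at 0.66 and 0.46 CPM in NT Nakdong. Os12g0204600 was at 0 in both KD libraries and at 2.62 and 2.84 CPM in NT Nakdong. All 3 kept their calls with each library left out, whereas the number of lower NB-ARC genes was 4 without either NT Nakdong library and 6 without KD replicate 2.

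The lipoxygenase and jasmonate list had 1 higher (2.17%) and 3 lower (6.52%) genes of 46 tested, against 1.36% and 3.04% of all tested genes, with a median log2 fold change of 0.16. The lower genes were those named above, Os12g0247700, Os03g0738600 and Os10g0361000, and the first of these alone kept its call when either NT Nakdong library was left out. The higher gene was Os06g0215900, similar to oxo-phytodienoic acid reductase, an enzyme family of jasmonate synthesis. It was at 4.74 and 4.49 CPM in KD and at 1.95 and 1.83 CPM in NT Nakdong (log2 fold change 1.29, SE 0.27, adjusted p = 0.029), and no fit with a library left out called it, with adjusted p from 0.076 to 0.18. The list as a whole summed to 2655 and 2548 CPM in KD and to 4489 and 4443 CPM in NT Nakdong, a difference that holds the fall of Os12g0247700. In the phenylpropanoid pathway, which supplies lignin, 2 of 46 tested genes (4.35%) were lower and none was higher. Both were similar to cinnamoyl-CoA reductase: Os09g0262000, at 6.02 and 4.604 CPM in KD and at 33.0 and 27.7 CPM in NT Nakdong, and Os01g0283700, at 2.43 and 2.34 CPM in KD and at 9.31 and 9.21 CPM in NT Nakdong. Neither was called without NT Nakdong replicate 1 (adjusted p = 0.097 and 0.175), nor was any gene of the list without KD replicate 2 or NT Nakdong replicate 2. Of 189 tested cytochrome P450 genes, 6 were higher and 6 were lower (3.17% each), with a median of 0.22. The share lower was near the 3.04% of all genes. The counts were 3 and 1 without NT Nakdong replicate 1 and 3 and 2 without NT Nakdong replicate 2.

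Cyclins, kinesins and DNA replication genes were taken as 1 list. Of its 113 tested cyclin, kinesin and DNA replication genes, 10 (8.85%) were lower and 1 (0.885%) was higher, against 3.04% and 1.36% of all tested genes, with a median log2 fold change of -0.31. The lower genes were 7 of 39 kinesins, the motors that move along microtubules, and 3 cyclin genes. The kinesin Os02g0775400 was at 11.9 and 8.43 CPM in KD and at 26.1 and 24.6 CPM in NT Nakdong (log2 fold change -1.31), and the kinesin Os01g0744000 was at 9.58 and 8.91 CPM in KD and at 19.6 and 19.2 CPM in NT Nakdong (log2 fold change -1.07), the one of the 10 that kept its call with each library left out. The cyclin D gene Os12g0588800 was at 0.61 and 0.22 CPM in KD and at 3.31 and 2.68 CPM in NT Nakdong. A further kinesin, Os01g0382450, ran the other way, at 4.42 and 5.31 CPM in KD and at 0 and 0.13 CPM in NT Nakdong. Of 8 tested B-type cyclins, which mark dividing cells, Os01g0805600 was lower, at 0.64 and 0.45 CPM in KD and at 1.89 and 2.14 CPM in NT Nakdong, and the most abundant, Os02g0800500, was at 59.3 and 55.3 CPM in KD and at 57.3 and 54.2 CPM in NT Nakdong. The 10 lower genes came to 1 without NT Nakdong replicate 1, 3 without NT Nakdong replicate 2 and 6 without KD replicate 2. Histone genes gave 1 higher (2.04%) and 2 lower (4.08%) of 49, near the shares of all genes, with a median of -0.04, and neither lower gene was called without NT Nakdong replicate 1 or 2.

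Heat shock proteins and factors had 6 (7.06%) lower and no higher genes of 85 tested, against 3.04% and 1.36% of all tested genes, with a median log2 fold change of -0.05 and 4 or 5 lower in each fit with a library left out. No member was called higher by edgeR, with 1 past 2-fold at an unadjusted p under 0.05. The lower genes were 4 of 15 small chaperones of the Hsp20 kind and the pair Os09g0482400 and Os09g0482600, both similar to heat shock protein 81-3, a cytosolic chaperone of the Hsp90 family. Os09g0482400 was at 71.9 and 67.1 CPM in KD and at 183 and 183.6 CPM in NT Nakdong (log2 fold change -1.40, SE 0.07, adjusted p = 2.1e-05). Its neighbour Os09g0482600 had nearly the same values, so the 2 may share reads and are uncertain as separate genes. The Hsp20 gene Os06g0253100 was at 1.35 and 1.37 CPM in KD and at 5.57 and 6.06 CPM in NT Nakdong (log2 fold change -2.09, SE 0.25), and the Hsp20 gene Os10g0159700 was at 3.36 and 4.12 CPM in KD and at 14.8 and 14.5 CPM in NT Nakdong (log2 fold change -1.97, SE 0.26). Both sat well below NT Nakdong in each KD library.

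**Figure D3:**
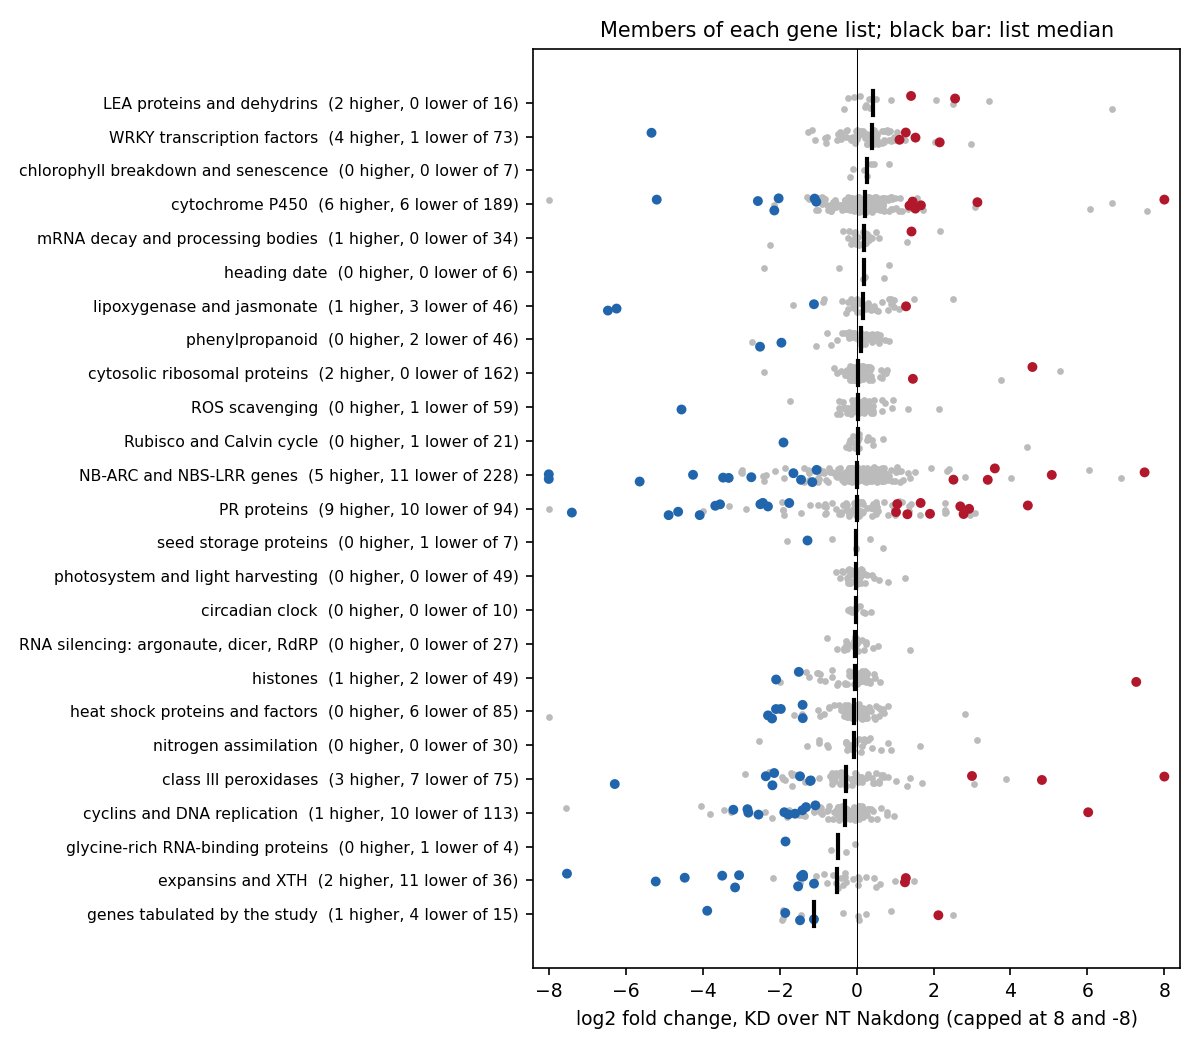
Log2 fold change of OsGRP3 KD over NT Nakdong (horizontal axis, values beyond 8 drawn at 8 or -8) for the tested genes of each list (rows), with 1 point per gene, genes called higher in red, genes called lower in blue and a bar at the median of the list. Expansins and XTH, at a median of -0.50 with 11 genes lower, and cyclins and DNA replication genes, at -0.31 with 10 lower, stand left of 0, while photosystem genes gather at -0.02 with no call.

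Photosynthesis, nitrogen assimilation and clock genes were read against the 4.40% of all tested genes that were called, a share at which lists of this length hold few calls or none. No photosystem or light-harvesting gene of 49 tested passed, also at the unadjusted p, and the chlorophyll a-b binding protein gene Os01g0600900 was at 13859 and 15718 CPM in KD and at 16257 and 17974 CPM in NT Nakdong. Of 21 tested Rubisco and Calvin cycle genes, 1 was lower. It was the Rubisco small subunit gene Os02g0152400, at 4.13 and 3.53 CPM in KD and at 13.1 and 15.8 CPM in NT Nakdong (log2 fold change -1.91, SE 0.21), while the list summed to 50594 and 60915 CPM in KD and to 57417 and 54404 CPM in NT Nakdong. None of 30 nitrogen assimilation genes was called by edgeR, with 2 past 2-fold upwards at an unadjusted p under 0.05. None of 7 chlorophyll breakdown, 10 circadian clock and 6 heading date genes was called either, with 0, 0 and 1 at an unadjusted p under 0.05. GIGANTEA (Os01g0182600), a component of the circadian clock, was at 900.3 and 932 CPM in KD and at 865 and 852 CPM in NT Nakdong. Its log2 fold change was 0.09 (SE 0.08, adjusted p = 0.51).

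Scavengers of reactive oxygen gave 1 lower gene of 59 tested (1.69%, below the 3.04% of all tested genes), with a median of 0.03, and the list had no lower gene without either NT Nakdong library and 1 higher gene without KD replicate 2. The lower gene, Os12g0613250, is annotated with BTB/POZ and NPH3 domains beside a superoxide dismutase site, and was at 0.29 and 0 CPM in KD and at 3.08 and 4.28 CPM in NT Nakdong. No catalase of 3 tested, ascorbate peroxidase of 10 or metallothionein of 13 was called. With 4.40% of all tested genes called, so few genes can hold no call. Late embryogenesis abundant proteins and dehydrins, which protect cells during drying, had 2 higher genes of 16 tested (12.5%, against 1.36% of all tested genes) and a median of 0.42. Os05g0542500 was at 3.94 and 2.34 CPM in KD and at 0.40 and 0.65 CPM in NT Nakdong, and dehydrin RAB 16C (Os11g0454000) was at 2.63 and 2.45 CPM in KD and at 1.03 and 0.88 CPM in NT Nakdong. Neither was called without KD replicate 1 or without either NT Nakdong library. Cytosolic ribosomal protein genes gave 2 higher of 162 tested (1.23%, near the share of all genes), with a median of 0.04, and the L44-like gene Os07g0450000 was at 20.5 and 24.5 CPM in KD and at 8.35 and 7.97 CPM in NT Nakdong (log2 fold change 1.46, SE 0.13). The other, the S9-like Os03g0379500, was at 8.39 and 10.1 CPM in KD and at 0.23 and 0.52 CPM in NT Nakdong, and was not called without NT Nakdong replicate 1 (adjusted p = 0.083) or 2 (0.051). None of 4 tested genes of the momilactone cluster was called, and 1 of 7 tested seed storage protein genes was lower, a call lost without KD replicate 2 or either NT Nakdong library.

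Some genes had counts in one group only. With no count in either KD library and at least 5 CPM in both NT Nakdong libraries, 40 genes were found, and 26 had no count in either NT Nakdong library and at least 5 CPM in both KD libraries. Against a floor of 3 counts per library, the 40 genes were at least 46.1-fold to at least 1042-fold lower in KD, and the 26 genes at least 50.9-fold to at least 445-fold higher. Of the 40 genes, 33 passed the test of the fit, and of the 26, 23 did, against 4.40% of all tested genes. The genes were picked for their difference between these same libraries, so the counts of passes add nothing to the listing. Most of the genes were undescribed, as 23 of the 40 and 18 of the 26 were annotated as hypothetical, unknown or non-coding. The most abundant was the Hsp70-domain gene Os11g0696600, at 0 and 0 CPM in KD, 116 and 125 CPM in NT Nakdong and 0 and 105 CPM in OsGRP3 OE. It did not pass the test (adjusted p = 0.074), and the 2 OE libraries themselves differed. The leucine-rich repeat gene Os11g0695000 was at 0 in KD and at 61.4 and 52.5 CPM in NT Nakdong, and the Mov34/MPN/PAD-1 family gene Os07g0543700 was at 0 in KD and at 44.7 and 47.3 CPM in NT Nakdong. On the other side, Os07g0248800 was at 44.2 and 47.6 CPM in KD and at 0 in NT Nakdong, and Os03g0299700 was at 39.5 and 36.6 CPM in KD and at 0 in NT Nakdong. The chaperonin-like gene Os06g0197550, at 23.4 and 23.8 CPM in KD and at 0 in NT Nakdong, did not pass the test (adjusted p = 0.084).

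The levels in non-transgenic plants of the KD cultivar were then set beside these genes. Of the 40 genes without a count in KD, 36 were also at 0 in both NT Dongjin libraries, and 19 were at 5 CPM or more in both OsGRP3 OE libraries, which are of the cultivar Nakdong, while 7 were at 0 in both OE libraries. Of the 26 genes without a count in NT Nakdong, 11 were at 5 CPM or more in both NT Dongjin libraries and 5 were at 0 in both. In both OE libraries, 7 of the 26 were at 5 CPM or more and 8 were at 0. Os07g0248800, for example, was at 78.0 and 71.6 CPM in NT Dongjin, and Os03g0299700 was at 0 there, as in NT Nakdong. In OsGRP3 OE, Os07g0248800 was at 49.3 and 52.5 CPM, and Os03g0299700 was at 0.45 and 0 CPM. More of the 37869 annotated genes had no count in NT Dongjin (13721 and 13166) than in KD (11559 and 11875) or NT Nakdong (11506 and 11070). Coverage along transcripts also differed in NT Dongjin, as given above. How many of all genes at 5 CPM or more in NT Nakdong were at 0 in NT Dongjin was not counted. The 36 of 40 and the 11 and 5 of 26 thus have no share of all genes to be read against. The heat map of the 40 and 26 genes shows the blank stretches shared by KD and NT Dongjin.

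**Figure D4:**
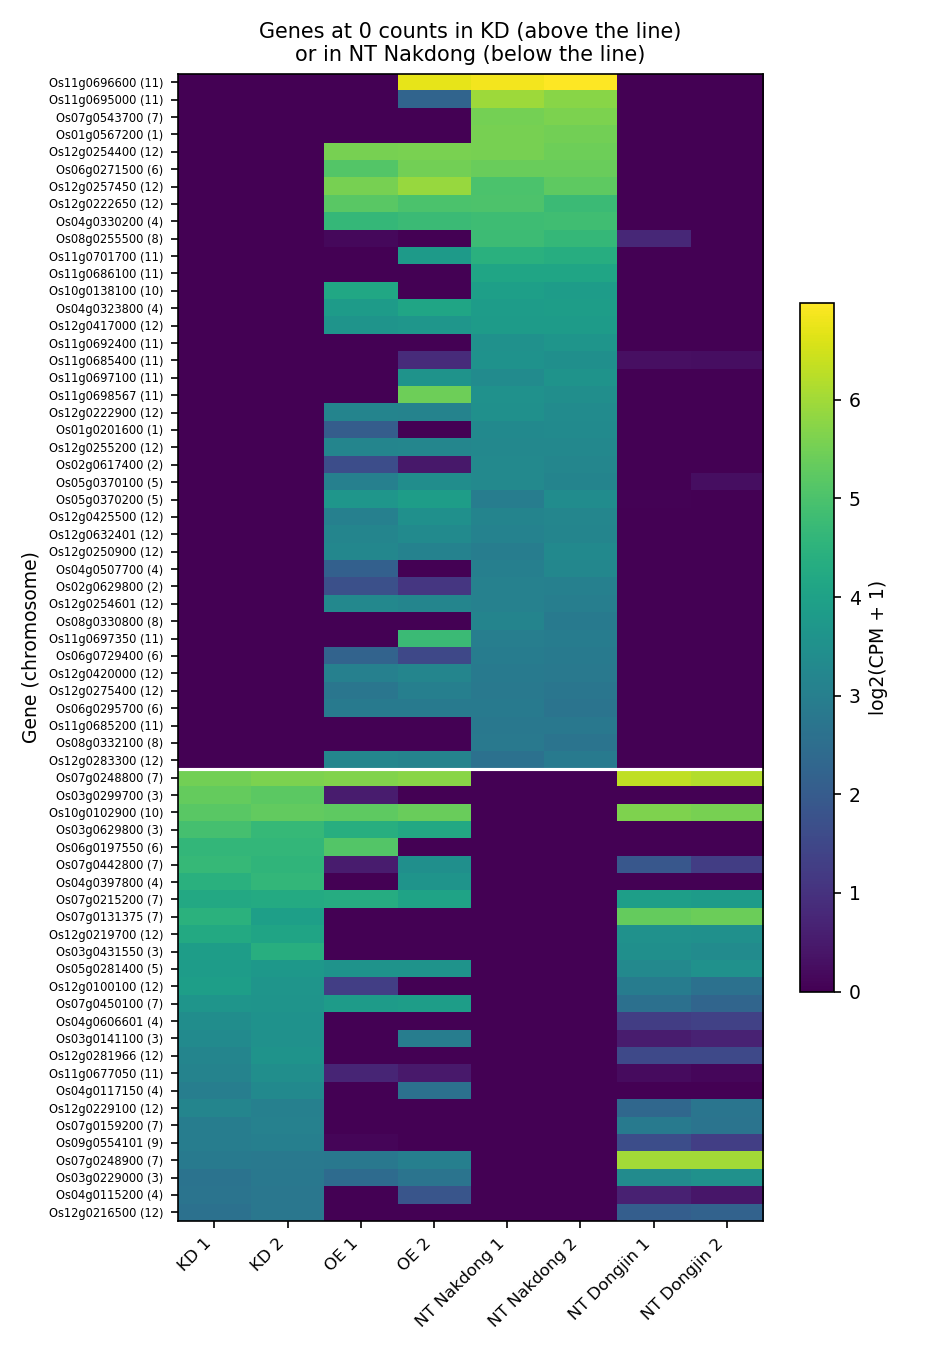
Heat map of the 40 genes with 0 counts in both KD libraries (above the line) and the 26 genes with 0 counts in both NT Nakdong libraries (below the line), 1 row per gene and 1 column per library, coloured by log2(CPM + 1). Of the upper 40 genes, 36 are also at 0 in both NT Dongjin libraries, 19 reach 5 CPM in both OE libraries, and 7 are at 0 in both OE libraries.

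The called genes were not spread evenly along the genome. On chromosome 12, 36 genes were higher and 93 were lower of 1377 tested, or 9.37% called, against 6.46% on chromosome 7, 5.24% on chromosome 11 and 2.75% to 4.55% on the other chromosomes. Without NT Nakdong replicate 1 the share on chromosome 12 was 4.11%, beside 1.27% of all genes, and without replicate 2 it was 4.61%, beside 1.59%. In windows of 1 Mb with at least 20 tested genes, the median share called was 3.65% over 362 windows, 48 had no call and 9 had 20% or more. Of these 9 windows, 6 lay on chromosome 12 between 6000001 and 15000000 (IRGSP-1.0), and the other 3 windows of that stretch had 12.5% to 19.5% called. In the whole stretch 72 of 279 tested genes were called (25.8%), 19 higher and 53 lower. Its first window, from 6000001 to 7000000, had 13 calls among 22 tested genes (59.1%). With 1 library left out the stretch held 42 to 62 calls, and the lowest number was without NT Nakdong replicate 1. A shorter stretch on chromosome 11, from 27000001 to 29000000, had 29 calls among 115 tested genes (25.2%), and 12 without NT Nakdong replicate 1. The remaining window, on chromosome 7 from 24000001 to 25000000, had 20 calls among 89 tested genes (22.5%), 4 higher and 16 lower, and 10 without NT Nakdong replicate 2. Outside the stretches on chromosomes 12 and 11 972 of 23989 genes were called (4.05%). The limits of these stretches were set after their values were seen, and they are a description. The stretches on chromosomes 12 and 11 hold 12 and 10 of the 40 genes without a count in KD.

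**Figure D5:**
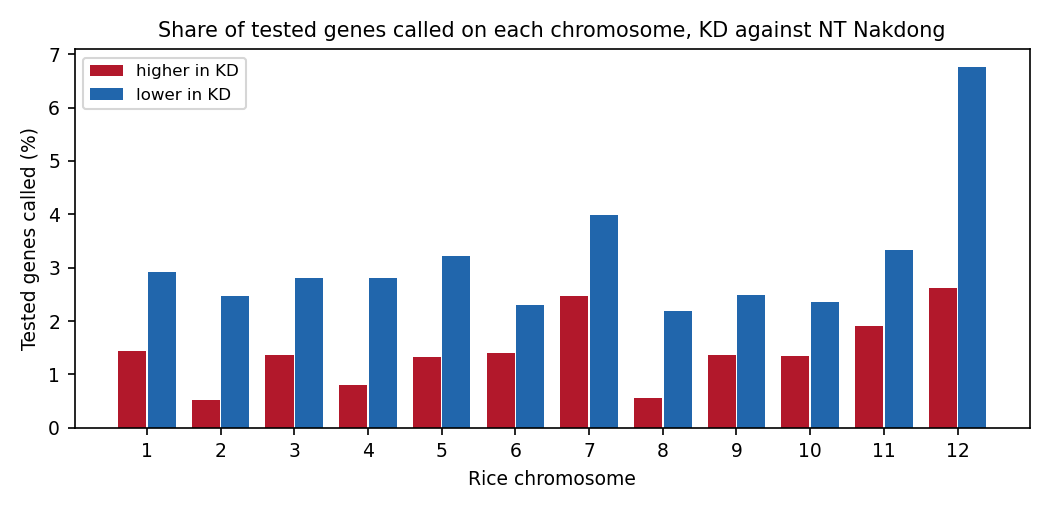
Share of tested genes called higher (red) and lower (blue) in OsGRP3 KD than in NT Nakdong, in percent from 0, for each of the 12 rice chromosomes. Chromosome 12 has the tallest bars, with 2.61% of its tested genes higher and 6.75% lower.

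Neighbouring genes of like annotation within the chromosome 12 stretch moved in opposite directions. Os12g0263600, an isoflavone reductase-like gene next to Os12g0263800, was at 148 and 148 CPM in KD and at 27.6 and 26.3 CPM in NT Nakdong (log2 fold change 2.45, SE 0.08, adjusted p = 1.9e-06), while Os12g0263800 fell by 4.45 on the log2 scale. In NT Dongjin the levels were 60.2 and 66.0 CPM of Os12g0263600 and 13.4 and 12.6 CPM of Os12g0263800. Of 4 neighbouring alkenal reductase and allyl alcohol dehydrogenase genes, Os12g0226400 was at 20.3 and 22.8 CPM in KD and at 0.73 and 1.06 CPM in NT Nakdong (log2 fold change 4.57, SE 0.24). The other 3 were lower in KD: Os12g0225900 was at 3.24 and 3.16 CPM in KD and at 21.3 and 23.0 CPM in NT Nakdong, Os12g0226700 at 5.86 and 4.27 CPM in KD and at 42.3 and 41.4 CPM in NT Nakdong, and Os12g0226900 at 29.7 and 35.8 CPM in KD and at 82.1 and 82.8 CPM in NT Nakdong. All 6 of these genes kept their calls with each library left out. Members of such families can share reads, and the part of this in their values was not tested. A second DIN1-like gene, Os12g0428000, was at 58.3 and 53.5 CPM in KD and at 186 and 193 CPM in NT Nakdong (log2 fold change -1.76, adjusted p = 0.034), opposite to Os04g0249600, and lost its call whichever library was left out.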

How the data were processed

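RNA-seq libraries were made from total RNA of rice leaves and are compared here as 2 OsGRP3 KD against 2 NT Nakdong. The authors deposited a table of 37869 genes with an estimated read count, FPKM and TPM per library, and files of transcripts and exons with StringTie coverage. Per the file headers, StringTie 1.3.4d estimated these on HISAT alignments with the IRGSP-1.0 representative annotation, while the labels also name Bowtie2 and the study's methods TopHat. The labels cite a stranded kit guide and StringTie ran with its reverse-strand option, but the study's methods name a kit that does not mark strand, so reads of overlapping genes on opposite strands may not be separable. Estimated counts are coverage multiplied by length, deposited as whole numbers and used as they are, although the design had assumed raw read counts. The deposited FPKM values served in alternatives only. TPM was not used. Coverage was used as deposited by the authors for exons and transcripts. No column of the authors' own comparisons was used.

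Counts were fitted with edgeR 4.0.16 (R 4.3.3; TMM, filterByExpr) as 4 group means over all 8 libraries, with the quasi-likelihood test of KD minus NT Nakdong and Benjamini-Hochberg adjustment over 24383 genes. A gene was called at a 2-fold difference with an adjusted p under 0.05. SE is the fold change divided by the square root of F, and CPM uses the TMM library sizes. The test was tested on simulated data for this comparison over 23919 genes, where it recovered 46.3% of 2-fold, 95.5% of 4-fold and 100% of 8-fold changes, with 16 unchanged genes called. The changed genes were drawn only from genes above a minimum mean level. A change simulated at exactly 2-fold can miss the 2-fold threshold at any depth. Totals ran from 27719989 to 38940899 counts in the 4 libraries. Floors of 3 counts cover counting error only. The labels do not say that the 2 libraries of a group are separate plants, but the study describes its data as 2 biological replicates. What made up a replicate is not stated in the sources used here, so p-values measure the spread between these libraries only.

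A rule picked 120 named genes. They were OsGRP3 and the genes the study tabulated, the 10 largest rises and falls among called genes with at least 1 CPM in each library, the 6 most abundant called genes of each direction, the 6 most abundant of each direction listed at 0 in a group, and up to 4 called members of each of 28 lists with the largest change, or the 2 most abundant where none was called. Not all of them are described above, among them members of the expansin, cytochrome P450 and WRKY lists. Other genes were chosen after their values were seen: the glycine-rich RNA-binding, PR, WRKY45, NB-ARC, kinesin, B-type cyclin, peroxidase, expansin, XTH, HSP81-3 and chromosome 12 genes outside that rule. The members and lists were chosen with earlier results of these data known, and the list wording was set to the table's descriptions. Alternatives were median-of-ratios size factors, DESeq2 1.42.0, other filters, fewer libraries, a replicate block, limma 3.58.1 on log2 FPKM, and each library left out. Positions are those of the deposited files.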

Additional observations from a re-analysis of the deposited data

How the results depend on the processing

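With 2 libraries a side, leaving out a library leaves its group with 1, which is then assumed to vary like the other groups. Over these fits the genes called higher ranged from 128 to 314 and those called lower from 192 to 898 at the adjusted p, and the share called on chromosome 12 from 4.11% to 8.85%. At the unadjusted p, a minimum of 10 counts in every library called 466 higher and 848 lower, limma on log2(FPKM + 1) called 309 and 684, and the same with a mean FPKM of at least 0.5 called 313 and 676. Chromosome 12 had 5.51% of its genes called with the minimum of 10 counts and 5.26% with limma on log2(FPKM + 1). Among adjusted calls, DESeq2 gave 373 higher and 870 lower, no filter 461 and 961, the 4 libraries alone 385 and 933, and limma on log2(FPKM + 1) 224 and 554. OsGRP3 stayed between -1.91 and -1.80 and passed in every alternative. The numbers of genes listed at 0 in a group were within 1.5 times the 40 and 26 at 2 CPM (56 and 39) and at up to 3 counts (47 and 30). A replicate block gave 262 higher and 604 lower genes against 332 and 741. Libraries of the same number did not deviate together (r = -0.04 across 24383 genes, which are not independent), so they share only a number. Of 120 named genes, 90 were called, and most of the 90 lost the call in at least 1 alternative. All 90 kept their direction, which says nothing more, as the groups of a called gene did not overlap. The lost calls numbered 53 without NT Nakdong replicate 1, 49 without NT Nakdong replicate 2, 18 and 21 without KD replicate 1 and 2, 18 with limma on log2(FPKM + 1), 11 with the replicate block and 9 with DESeq2. Named genes that were not called changed sign as follows, in log2 fold change. Os04g0180400 was at -0.0200 with median-of-ratios size factors, -0.0185 with DESeq2, -0.00249 with no filter, -0.0396 with the replicate block, -0.0185 and -0.17 with limma on log2(FPKM + 1) and log2(FPKM + 0.1), and from -1.61 to 0.77 with a library left out. Os03g0284100 was at 0.0402 in all 3 limma fits and from -0.0870 to 0.0522 with a library left out, and Os08g0371200 at -1.7e-04 with limma on log2(FPKM + 0.1) and from -0.46 to 0.44 with a library left out. With a library left out, Os01g0275600 ran from -0.0346 to 0.105, Os04g0178400 from -0.49 to 0.44, Os09g0346500 from -0.195 to 0.0378 and Os12g0571100 from -0.12 to 0.24. What moved these values was not tested. Of changes simulated at exactly 2-fold, 46.3% were recovered. The 2-fold threshold itself drops many of these, so the share is no measure of depth or number of libraries alone. A gene that was not called may still differ.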

Other observations

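The 2 KD libraries differed from each other in a direction that many called genes shared. Of the 741 genes called lower in KD, 504 were higher in KD replicate 1 than in KD replicate 2, against 12774 of all 24383 tested genes, with a median log2 ratio of replicate 1 over replicate 2 of 0.26 for the genes called lower and 0.02 for all genes. Of the 332 genes called higher, 169 were higher in replicate 1. By list, the count was 60 of 75 class III peroxidases, 64 of 94 PR protein genes, 5 of 49 photosystem genes and 13 of 162 cytosolic ribosomal protein genes. The part of this difference in the calls was not tested beyond the fits that leave out a library.

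On chromosome 11, several genes without a count in KD were also at 0 in OsGRP3 OE replicate 1 and present in OE replicate 2. Os11g0696600 was at 0 and 105 CPM there, Os11g0698567 at 0 and 42.8 CPM, and Os11g0697350 at 0 and 26.2 CPM, against 116 and 125, 10.5 and 9.86, and 6.92 and 6.63 CPM in NT Nakdong. These genes lie between 28496703 and 28584012 on that chromosome and were chosen after their values were seen.

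Os07g0248800 and Os10g0102900, on chromosomes 7 and 10, carry the same description and moved alike. They were at 44.2 and 47.6 CPM and at 35.6 and 38.4 CPM in KD, at 78.0 and 71.6 CPM and at 48.8 and 45.5 CPM in NT Dongjin, and at 0 in both NT Nakdong libraries. In OsGRP3 OE, which is of the cultivar Nakdong, they were at 49.3 and 52.5 CPM and at 37.3 and 40.8 CPM.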
